A study of Mus musculus with 6 samples.

Results

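Autophagy and vesicle sorting genes were taken as every row of the gene table whose symbol begins with Atg, Vps, Chmp or Snx and a digit, with Gabarap, Map1lc3 or Wipi, or with Ulk1 to Ulk4. To these came 12 genes given by full name, Becn1, Sqstm1, Nbr1, Optn, Tfeb, Tfe3, Lamp1, Lamp2, Uvrag, Rb1cc1, Pik3c3 and Ambra1. The rule found 116 of the 17794 genes in the table, and it used no measured value. RNA was sequenced from whole mouse corneas after dry eye had been induced with benzalkonium chloride (BAC), a detergent used to preserve eye drops. The corneas then received luteolin, a plant flavonoid, for 10 days (3 libraries) or vehicle for 10 days (3 libraries), so both groups carry the BAC injury and no uninjured cornea was compared. The labels give no strain, age, dose or route, and they do not say whether each library came from a separate animal or a pool. The p-values therefore describe the spread among these libraries, which may be technical.

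Autophagy encloses cytoplasm in a double membrane and delivers it to the lysosome. A kinase complex starts the process, a class III PI3-kinase marks the membrane with a phosphoinositide, lipid transfer proteins feed it, and ubiquitin-like conjugation attaches ATG8 proteins that cargo receptors bind. Vesicle sorting shares the same endosomes: sorting nexins and retromer send receptors back to the cell surface or the Golgi, ESCRT complexes pinch cargo into multivesicular bodies, and HOPS tethers fuse endosomes and autophagosomes with lysosomes. In corneal epithelium, which sheds and replaces its surface cells throughout life, autophagy and endocytic sorting help to turn over organelles and surface proteins.

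The transcription factors TFEB and TFE3, both members, bind an extended palindrome, CACGTG with GT before it and AC after it, upstream of many autophagy and lysosome genes. Promoter windows of 300 bases, 250 before and 50 after the start (RefSeq, build GRCm38.p6), were available for 84 members in 101 windows. The extended palindrome occurred in 4 of the 101 windows (3.96%), against 0.498% of the 17467 windows of all genes in the table. Those windows belong to Vps16, Vps33a and Vps26a, the last with a pair of overlapping windows. By call, the palindrome was in 2 of 53 windows of members that rose, 2 of 40 of those that did not pass and 0 of 8 of those that fell. The core CACGTG, which every extended palindrome contains, occurred in 13 member windows (12.9%), against 8.82% of all windows. In the same order, the core was in 5 of 53, 6 of 40 and 2 of 8 windows. TGACNNNGC, the core of the antioxidant response element bound by NFE2L2, occurred in 12.9% of member windows and 13.8% of all windows. CCGGAAG, the core bound by ETS family factors, occurred in 19.8% of member windows and 13.7% of all windows. It was in 13 of the 53 windows of members that rose, among them overlapping windows of Vps52. Members that did not pass had it in 7 of 40 windows, and the 7 members that fell in 0 of 8, too few windows for a comparison. All motifs were searched on both strands, and a match is a run of letters, not a measured site. The windows of all genes include genes with counts too low to be tested, while all 116 members were tested. The 2 sets are therefore not matched for expression. Shown here are 1 window for each gene with the full palindrome, the window of Snx5, whose RNA fell, and the window of Chmp1a, whose RNA rose; each is written 5′ to 3′ on the gene's strand with motif matches in capitals.
Vps16: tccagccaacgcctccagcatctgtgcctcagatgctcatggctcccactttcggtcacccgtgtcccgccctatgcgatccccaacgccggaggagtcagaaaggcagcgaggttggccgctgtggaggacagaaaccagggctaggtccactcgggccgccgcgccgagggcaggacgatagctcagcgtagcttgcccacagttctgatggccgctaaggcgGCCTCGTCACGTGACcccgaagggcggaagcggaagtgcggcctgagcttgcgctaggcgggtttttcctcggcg
Vps33a: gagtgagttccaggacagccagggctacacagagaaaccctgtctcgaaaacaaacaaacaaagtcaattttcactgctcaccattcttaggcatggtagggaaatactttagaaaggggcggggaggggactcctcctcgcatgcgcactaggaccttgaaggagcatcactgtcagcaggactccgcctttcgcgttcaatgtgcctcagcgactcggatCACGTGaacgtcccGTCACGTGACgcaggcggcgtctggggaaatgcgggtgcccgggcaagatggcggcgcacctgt
Vps26a: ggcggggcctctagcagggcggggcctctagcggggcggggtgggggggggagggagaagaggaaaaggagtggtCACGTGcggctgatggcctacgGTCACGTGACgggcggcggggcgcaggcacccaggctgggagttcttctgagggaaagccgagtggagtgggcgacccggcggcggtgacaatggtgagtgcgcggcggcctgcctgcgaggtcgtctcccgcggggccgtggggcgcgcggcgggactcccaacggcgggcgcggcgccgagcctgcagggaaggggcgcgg
Snx5: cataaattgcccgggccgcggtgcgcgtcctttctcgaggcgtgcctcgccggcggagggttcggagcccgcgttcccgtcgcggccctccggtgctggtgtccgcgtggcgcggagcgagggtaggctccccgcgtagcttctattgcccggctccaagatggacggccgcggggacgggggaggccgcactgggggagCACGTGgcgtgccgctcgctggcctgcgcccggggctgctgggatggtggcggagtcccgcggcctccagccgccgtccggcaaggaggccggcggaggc
Chmp1a: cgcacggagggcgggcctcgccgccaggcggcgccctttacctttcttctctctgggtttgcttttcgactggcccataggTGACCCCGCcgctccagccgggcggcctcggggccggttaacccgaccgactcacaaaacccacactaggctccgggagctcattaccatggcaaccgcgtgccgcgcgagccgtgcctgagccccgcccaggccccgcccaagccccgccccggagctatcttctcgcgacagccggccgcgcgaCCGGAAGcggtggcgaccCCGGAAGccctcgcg
The Vps16 window is chr2:130424070-130424369 on the plus strand, with the palindrome 20 bases before the start and overlapped by a TGACNNNGC match. The other windows lie on the minus strand. Vps33a is at chr5:123572966-123573265 (palindrome 14 bases before the start and a second CACGTG), Vps26a at chr10:62486549-62486848 (palindrome 153 bases before the start and a second CACGTG), Snx5 at chr2:144270523-144270822 (1 CACGTG, 50 bases before the start) and Chmp1a at chr8:123212739-123213038 (1 TGACNNNGC and 2 CCGGAAG).

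Each library held between 16084855 and 16469699 estimated counts after rounding. The corneal identity of the tissue was clear: Krt12, the cornea's own keratin, and Aldh3a1, a corneal crystallin, together took between 4.54% and 4.81% of the counts in luteolin libraries and between 2.64% and 3.30% in vehicle libraries. Of 10 corneal epithelial markers, 9 were higher with luteolin, and their summed level was 76980 to 79698 CPM (counts scaled to library size) in luteolin corneas, against 44530 to 52588 CPM in vehicle corneas. Of 12 macrophage and dendritic cell markers, 10 were lower and 1 was higher (sum 239 to 297 CPM with luteolin, 579.5 to 949.7 CPM with vehicle). All 4 neutrophil markers tested were lower (1.23 to 2.38 CPM against 32.9 to 49.0 CPM), and 3 of the 6 in the table, S100a8 among them, were at 0 in every luteolin library. Vessel markers summed to 41.3 to 48.0 CPM with luteolin and 171 to 286 CPM with vehicle, and dividing cell markers to 303 to 444 CPM and 565 to 1139 CPM. The second vehicle library stood apart from its group in its keratocyte markers, which summed to 9160 CPM there, against 4845 and 3330 CPM in the other vehicle libraries. Skeletal muscle markers were uneven within both groups, at 17.7, 17.2 and 94.3 CPM with luteolin and 119, 199 and 15.4 CPM with vehicle. Conjunctival markers summed to 1737 to 2688 CPM with luteolin and 4083 to 4404 CPM with vehicle (3 of 4 lower), and corneal endothelial markers to 777 to 866 CPM and 946 to 1096 CPM (3 of 7 lower). All of these levels except those of keratocytes and muscle move with the groups in every result below, and their part in those results was not tested. In bulk tissue, fewer cells of a type and less RNA per cell cannot be told apart.

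All 116 members passed the filter on low counts. In edgeR's quasi-likelihood test with Benjamini-Hochberg adjustment over 13838 genes, 58 of the 116 members rose with luteolin and 9 fell at an adjusted p under 0.05. Among all tested genes 58.9% were called, 28.5% as higher and 30.4% as lower. The members' total of 67 calls is therefore close to the background, while the calls lean towards higher. Most differences were small: 44 of the 67 had an absolute log2 fold change under 0.5, 19 lay between 0.5 and 1, and 4 exceeded 1, a size that 19.7% of all tested genes passed. Past 0.5 on the log2 scale, 18 members were called higher and 5 lower, against 14.9% and 22.4% of all genes. The median log2 fold change was 0.20 over the members and -0.02 over all tested genes, and the median absolute log2 fold change was 0.27 and 0.40. By family, 19 of the 41 autophagy genes rose and 2 fell, 29 of the 45 VPS and CHMP genes rose and 1 fell, and 10 of the 30 sorting nexins rose and 6 fell. Values of the 2 groups did not overlap for 63 members on the higher side and 14 on the lower side, against 33.8% and 33.7% of all genes.

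The balance of higher and lower calls differed between the settings tried. With upper quartile factors 40 members were called higher and 14 lower, against 22.3% and 36.2% of all genes. With library sizes alone the members' counts were 39 and 17 (21.3% and 37.2% of all genes), with limma on log2(FPKM + 1) 39 and 18 (20.1% and 37.6%) and on log2(FPKM + 0.1) 38 and 19 (20.2% and 37.9%). The limma fits change the measure and the test together with the scaling. The median of all genes was also lower in these fits, at between -0.11 and -0.14. A correction for gene length gave 81 higher and 6 lower (42.3% and 20.2% of all genes) and moved the median of all genes to 0.20. The members' median stood above that of all genes by 0.15 to 0.27 on the log2 scale under each of the 19 settings tried. With the skeletal muscle markers as a covariate 51 members were called higher and 8 lower (25.4% and 26.5% of all genes), and without vehicle replicate 2 the counts were 60 and 9 (29.3% and 31.6%). Among the named genes, Rb1cc1, Ulk1, Pik3c3, Map1lc3a, Map1lc3b, Vps33b, Vps35l, Chmp2a and Snx13 lost their calls both with upper quartile factors and with library sizes alone. No member called in the reported fit was called in the opposite direction under any of the settings, and 36 higher and 6 lower calls passed under all of them. The matching share among all genes was not counted.

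**Figure D1:**
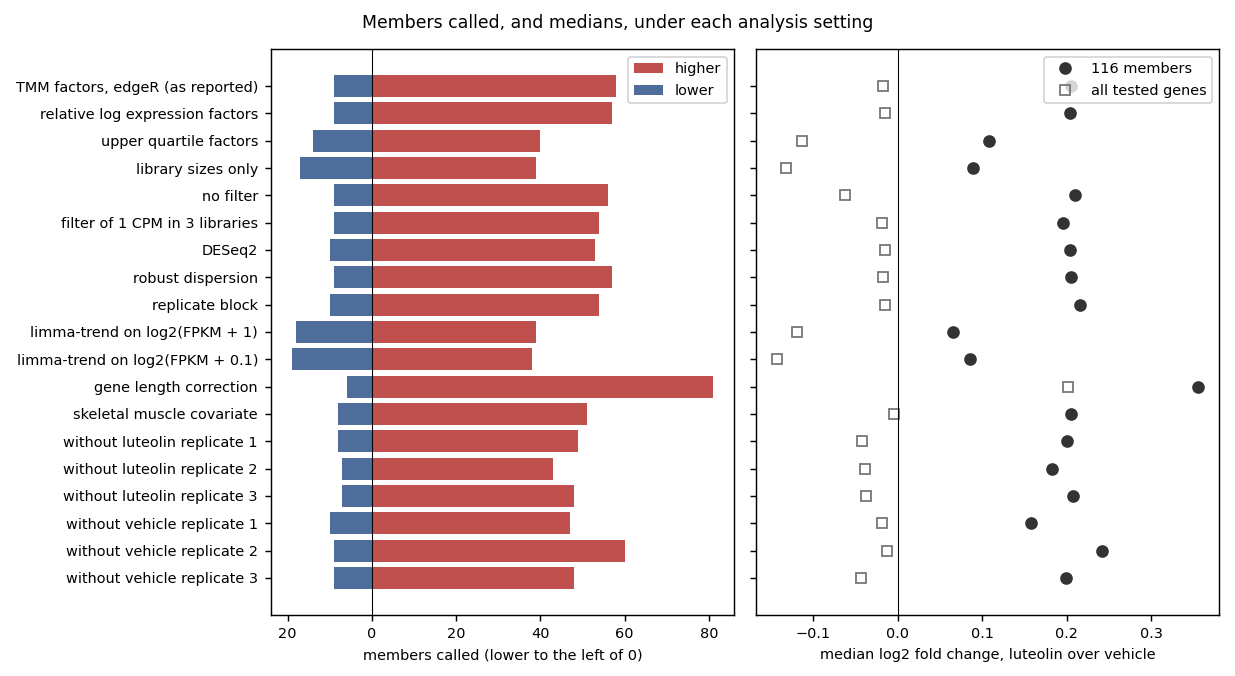
Left: number of members called higher (red, right of 0) and lower (blue, left of 0) under each of the 19 settings. Right: median log2 fold change of the 116 members (filled circles) and of all tested genes (open squares). Calls range between 81 higher and 6 lower with the gene length correction and 38 higher and 19 lower with limma on log2(FPKM + 0.1), and the circle lies to the right of the square in every row.

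**Figure D2:**
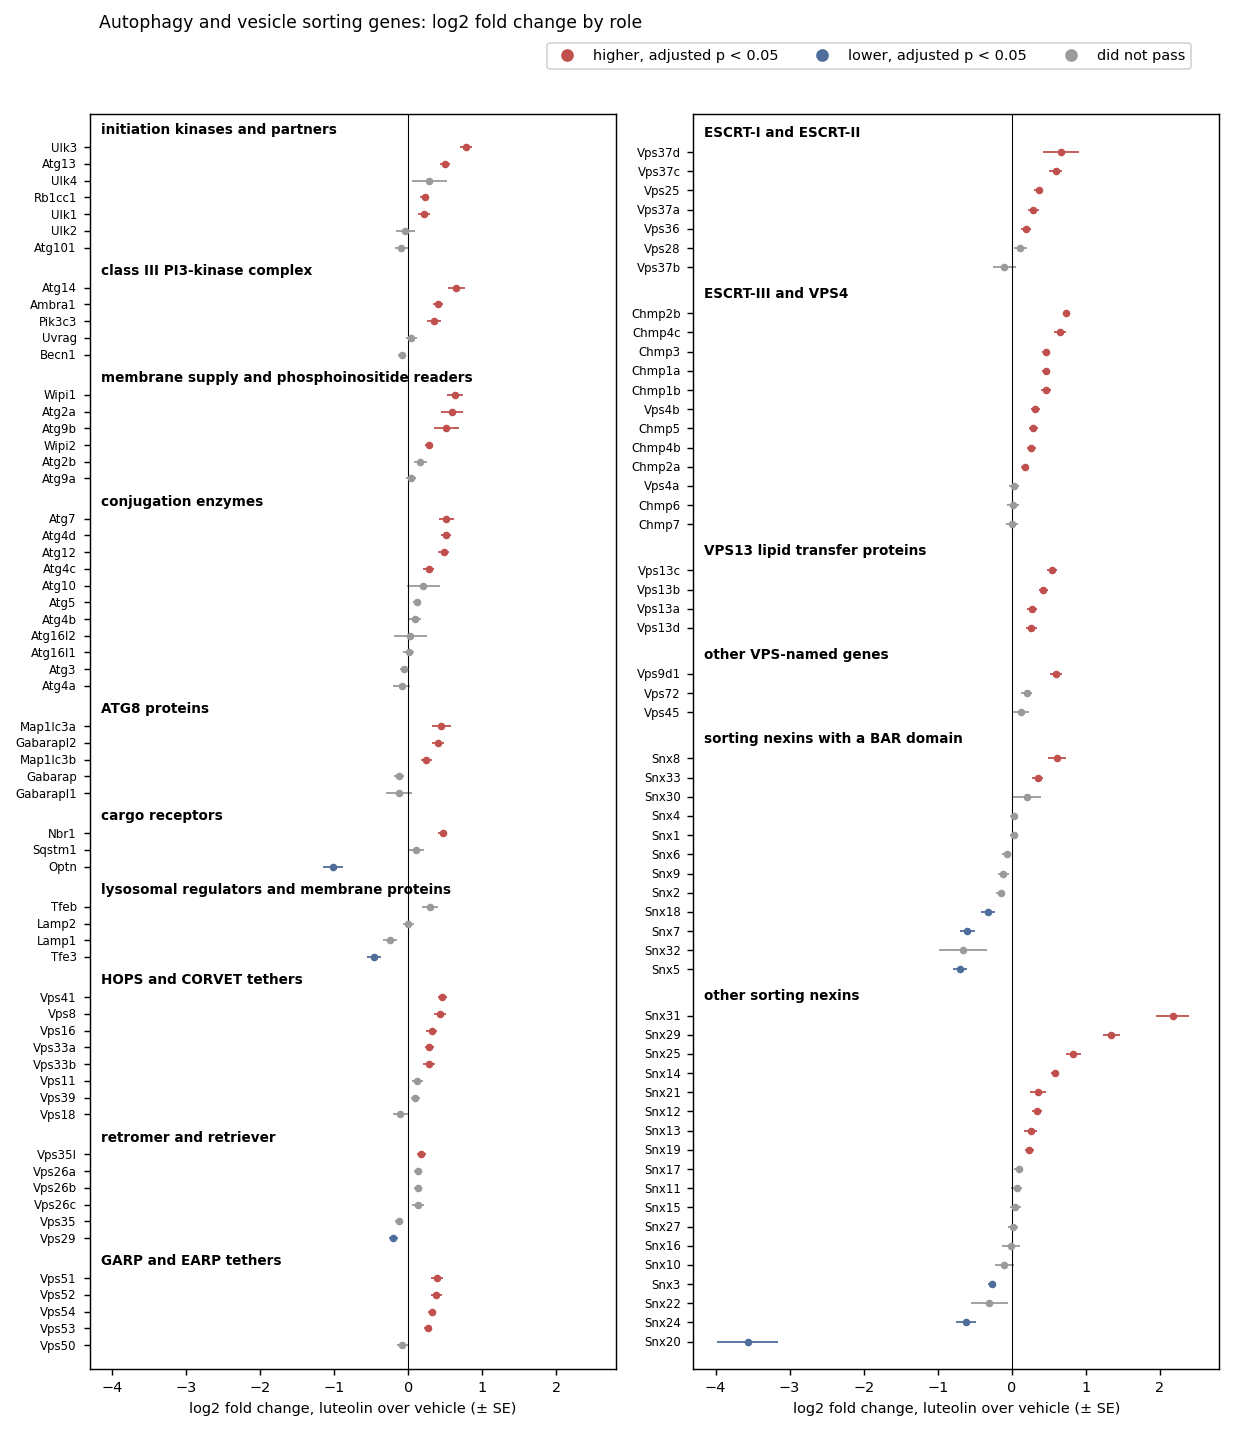
Log2 fold change (luteolin over vehicle, with standard error) of the 116 members, grouped by role; red points were higher and blue points lower at an edgeR adjusted p under 0.05, and grey points did not pass. Points run between 2.17 for Snx31 and -3.56 for Snx20, all 4 VPS13 genes lie to the right of 0, and 6 of the 9 blue points are sorting nexins.

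Counts by role, here and below, are to be read against the 28.5% of all tested genes called higher and the 30.4% called lower. Among the kinases and scaffolds that start autophagy, 4 of 7 rose and none fell, and 2 of these calls remained with library sizes alone. Ulk3, a serine/threonine kinase related to ULK1, measured 47.3, 46.5 and 48.1 CPM in luteolin corneas, against 25.5, 27.1 and 30.1 CPM in vehicle corneas. All 3 luteolin libraries lay above every vehicle library, a 1.72-fold difference (log2 fold change 0.78 ± 0.08 SE, edgeR adjusted p = 0.000227). Atg13, the adaptor that links the kinase ULK1 to its scaffold, measured 56.1, 55.7 and 52.8 CPM with luteolin and 36.0, 39.8 and 40.9 CPM with vehicle, again without overlap (1.41-fold, adjusted p = 0.000932). Rb1cc1, which encodes the scaffold FIP200, differed less, at 85.4, 83.6 and 81.1 CPM with luteolin, against 67.4, 74.5 and 72.0 CPM with vehicle (log2 fold change 0.23 ± 0.06, adjusted p = 0.0141). Its call was lost without luteolin replicate 1 (adjusted p = 0.0559) or 2 (0.0528). Ulk1 itself barely passed (1.16-fold, log2 fold change 0.21 ± 0.08, adjusted p = 0.0479), and its call was lost under 11 of the 18 alternatives. Ulk2 did not pass (log2 fold change -0.04, adjusted p = 0.821).

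In the class III PI3-kinase group, 3 of 5 members rose and none fell. Atg14, the subunit that directs the kinase to autophagosome formation, measured 24.6, 23.2 and 22.4 CPM in luteolin corneas, against 12.5, 15.6 and 16.5 CPM in vehicle corneas. The groups were well separated, with a 1.57-fold difference (log2 fold change 0.65 ± 0.12, adjusted p = 0.00281). Ambra1, a Beclin 1 partner and ubiquitin ligase adaptor, measured 40.6, 40.4 and 44.3 CPM with luteolin and 30.3, 32.1 and 32.0 CPM with vehicle (1.33-fold, adjusted p = 0.00193). Pik3c3, the lipid kinase itself, measured 56.3, 57.0 and 70.9 CPM with luteolin and 49.2, 47.1 and 48.2 CPM with vehicle (adjusted p = 0.0167). The third luteolin library stood above the other two in CPM. On the length-normalised scale the luteolin libraries lay closer together, and Pik3c3 averaged 26.9 ± 0.80 TPM (transcripts scaled to gene length and library size) with luteolin and 20.6 ± 1.12 TPM with vehicle (SD, n = 3 each). Becn1, the regulatory subunit Beclin 1, did not pass: it measured 100.4, 103 and 98.8 CPM with luteolin and 109, 103 and 109 CPM with vehicle (log2 fold change -0.09 ± 0.05, adjusted p = 0.180). It was called lower with library sizes alone (log2 fold change -0.20, median of all genes -0.13), and the gene length correction turned its sign (0.17, median of all genes 0.20). Uvrag, the subunit of the endosomal form of the complex, overlapped between groups, at 41.2, 39.7 and 35.4 CPM with luteolin and 36.1, 38.3 and 38.5 CPM with vehicle.

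Of the 6 genes that supply membrane or read phosphoinositides, 4 rose and none fell. Wipi1, a reader of phosphatidylinositol 3-phosphate on forming autophagosomes, measured 28.1, 29.7 and 28.5 CPM in luteolin corneas, against 15.9, 19.6 and 20.2 CPM in vehicle corneas (1.55-fold, log2 fold change 0.63 ± 0.10, adjusted p = 0.00183). Its relative Wipi2 also rose, with 78.1, 80.9 and 80.3 CPM for luteolin and 64.5, 65.3 and 66.8 CPM for vehicle (1.22-fold, adjusted p = 0.00275). Both genes separated the groups in every library. Atg2a, a bridge that moves lipids into the growing membrane, varied more among vehicle libraries, with 49.96, 60.2 and 56.4 CPM for luteolin and 29.2, 37.8 and 43.4 CPM for vehicle (1.51-fold, adjusted p = 0.0102).

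Of the 11 conjugation enzymes 4 rose, none fell and 7 did not pass, so that 36.4% were called, against 58.9% of all genes. Atg12, the ubiquitin-like protein joined to ATG5, measured 75.2, 78.8 and 72.1 CPM in luteolin corneas, against 49.6, 58.6 and 54.0 CPM in vehicle corneas (1.39-fold, log2 fold change 0.48 ± 0.08, adjusted p = 0.00159). Atg4d, one of the ATG8 proteases, measured 59.4, 62.7 and 65.9 CPM with luteolin and 44.2, 42.9 and 44.9 CPM with vehicle (1.42-fold, adjusted p = 0.000489). Neither gene overlapped between groups. The median log2 fold change of the role was 0.12, and -0.02 with limma on log2(FPKM + 1), and relative to the median of all genes it was 0.14 and 0.10.

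Among the ATG8 proteins, Map1lc3a, Map1lc3b and Gabarapl2 rose, while Gabarap and Gabarapl1 did not pass. Gabarapl2, also known as GATE-16, measured 112, 116 and 113 CPM in luteolin corneas, against 79.9, 95.9 and 81.7 CPM in vehicle corneas (1.32-fold, log2 fold change 0.40 ± 0.08, adjusted p = 0.00370). Map1lc3a measured 32.7, 38.1 and 33.6 CPM with luteolin and 23.4, 30.4 and 22.5 CPM with vehicle (adjusted p = 0.0195). Map1lc3b, the LC3 form most used as an autophagosome marker, measured 181, 195 and 182 CPM with luteolin and 147, 171 and 153 CPM with vehicle (1.18-fold, adjusted p = 0.0247). The groups did not overlap, but both LC3 genes lost their calls in several of the fits that left out 1 library. In those fits 22.6% to 24.2% of all genes were called higher, against 28.5% with all libraries. Map1lc3a missed the threshold without luteolin replicate 2 (adjusted p = 0.0732), vehicle replicate 1 (0.0654) or vehicle replicate 3 (0.0562), and Map1lc3b without luteolin replicate 1 (0.0526) or 2 (0.0908) or vehicle replicate 1 (0.0757) or 3 (0.0731). With upper quartile factors or library sizes alone (medians of all genes -0.11 and -0.13), Gabarapl2 was the remaining higher call of the role and Gabarap was called lower. With the gene length correction Gabarap was called higher (log2 fold change 0.28, median of all genes 0.20). By TPM, which allows levels of different genes to be compared, Gabarap made up 44.4% ± 0.42 of the ATG8 transcripts in luteolin corneas and 52.3% ± 1.68 in vehicle corneas (SD, n = 3 each). Gabarapl2 made up 29.1% ± 0.33 with luteolin and 23.8% ± 0.44 with vehicle.

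Among the 3 cargo receptors 1 fell, 1 rose and 1 did not pass. Optn (optineurin, gene ID 71648), a ubiquitin-binding receptor of damaged mitochondria and bacteria, measured 14.1, 18.8 and 14.3 CPM in luteolin corneas, against 28.1, 35.1 and 32.4 CPM in vehicle corneas. Every luteolin library lay below every vehicle library, a 2.02-fold lower level (log2 fold change -1.02 ± 0.14, adjusted p = 0.000838). Nbr1, a receptor for ubiquitinated proteins, rose, with 167, 176 and 173 CPM for luteolin and 119.8, 130.1 and 123.6 CPM for vehicle (1.38-fold, adjusted p = 0.000490). Sqstm1, the receptor p62, did not pass and overlapped, at 176, 183 and 188 CPM with luteolin and 146, 191 and 170.0 CPM with vehicle (adjusted p = 0.364). Its log2 fold change was 0.11, and -0.0036 with library sizes alone.

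Of the 4 lysosomal regulators and membrane proteins, Tfe3 fell and the others did not pass. Tfe3 measured 28.0, 30.4 and 29.5 CPM in luteolin corneas, against 44.5, 36.2 and 40.3 CPM in vehicle corneas (1.38-fold lower, log2 fold change -0.46 ± 0.09, adjusted p = 0.00387). Its paralog Tfeb pointed the other way without passing, at 14.6, 13.5 and 13.5 CPM with luteolin and 10.3, 11.9 and 11.7 CPM with vehicle (log2 fold change 0.29 ± 0.11, adjusted p = 0.0521). Neither gene overlapped between groups, and without vehicle replicate 2 Tfeb passed (adjusted p = 0.0394). It also passed with the gene length correction (0.0055), at a log2 fold change of 0.51, where the median of all genes was 0.20. Lamp1 and Lamp2, the main glycoproteins of the lysosomal membrane, came next after Chmp2a and Gabarap in abundance by TPM. Lamp1 measured 485, 495 and 445 CPM with luteolin and 507, 639 and 541 CPM with vehicle (log2 fold change -0.24 ± 0.10, adjusted p = 0.0616). The 2 groups did not overlap, and Lamp1 passed as lower without vehicle replicate 1 (adjusted p = 0.0296), in DESeq2 (0.0387) and with library sizes alone (0.0128). Lamp2 measured 526, 512.5 and 472 CPM with luteolin and 485, 538 and 484 CPM with vehicle, with groups that overlapped (adjusted p = 0.980).

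**Figure D3:**
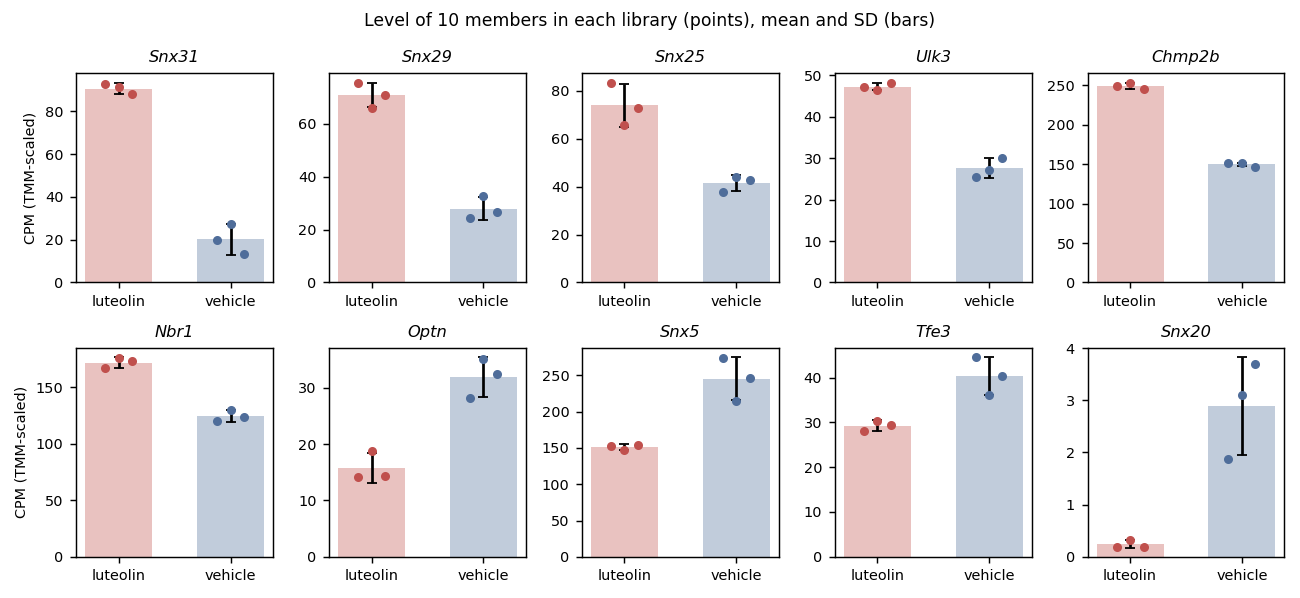
CPM (scaled with TMM factors) of 10 members in each of the 3 luteolin and 3 vehicle libraries; points are libraries, bars are means and whiskers are SD, on axes that start at 0. Luteolin points lie above all vehicle points for Snx31, Snx29, Snx25, Ulk3, Chmp2b and Nbr1 and below them for Optn, Snx5, Tfe3 and Snx20.

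In the group of the tethers HOPS and CORVET, which dock endosomes to lysosomes and to each other, 5 of 8 members were higher and none lower. The 5 include Vps33b (1.21-fold, adjusted p = 0.0168), a paralog of the subunit Vps33a that is not itself a subunit of either tether. Vps41, a HOPS subunit, measured 124, 114 and 116 CPM in luteolin corneas, against 82.1, 90.0 and 85.1 CPM in vehicle corneas (1.38-fold, log2 fold change 0.46 ± 0.06, adjusted p = 0.000700). Vps8, a CORVET subunit, measured 30.2, 31.8 and 33.1 CPM with luteolin and 24.4, 24.2 and 21.9 CPM with vehicle (1.35-fold, adjusted p = 0.00281). Vps16 and Vps33a, shared core subunits whose promoters carry the extended palindrome, rose by 1.25-fold (adjusted p = 0.00792) and 1.22-fold (adjusted p = 0.00413). These 4 subunits did not overlap between groups, though Vps16 (adjusted p = 0.0515) and Vps33a (0.0951) missed the threshold with limma on log2(FPKM + 1), and Vps8 with limma on log2(FPKM + 0.1).

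Retromer and the related retriever complex, which return receptors out of endosomes, had 1 of 6 subunits higher, 1 lower and 4 not passed, and the largest of their absolute log2 fold changes was 0.20. Vps29, a subunit of both complexes, measured 56.3, 57.9 and 59.1 CPM in luteolin corneas, against 65.9, 70.4 and 63.0 CPM in vehicle corneas (log2 fold change -0.20 ± 0.06, adjusted p = 0.0260). Vps35l, the scaffold of retriever, measured 58.5, 57.8 and 56.0 CPM with luteolin and 49.2, 54.1 and 49.0 CPM with vehicle (log2 fold change 0.18 ± 0.06, adjusted p = 0.0423). The groups did not overlap for either gene, yet both calls were fragile. Vps29 was lost without luteolin replicate 1, 2 or 3 (adjusted p = 0.0719, 0.0615 and 0.0520), with the muscle covariate (0.0827) and with the gene length correction (0.995). In the length-corrected fit its log2 fold change was -0.00053 while the median of all genes was 0.20, so Vps29 stayed below that median. Vps35l was lost without luteolin replicate 1, 2 or 3 (0.139, 0.134 and 0.0712) and without vehicle replicate 1 (0.129) or 3 (0.151). Vps26a, the retromer arm with the promoter palindrome, measured 138, 132 and 129 CPM with luteolin and 119.5, 123.8 and 119.0 CPM with vehicle and did not pass (adjusted p = 0.0562). It passed without vehicle replicate 2 (0.0457) and with the gene length correction (0.00242, log2 fold change 0.34 with the median of all genes at 0.20). Of the GARP and EARP tethers, which receive vesicles from endosomes, 4 of 5 rose and none fell. Vps54, the GARP-specific subunit, measured 113, 111 and 109.9 CPM with luteolin and 87.4, 93.4 and 87.0 CPM with vehicle (1.25-fold, adjusted p = 0.00204). Vps52, a subunit common to both tethers, rose by 1.30-fold (adjusted p = 0.00400), and neither gene overlapped.

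ESCRT subunits were mostly higher with luteolin. In ESCRT-I and ESCRT-II, which collect ubiquitinated cargo, 5 of 7 members rose and none fell. Vps37c, an ESCRT-I subunit, measured 40.7, 41.6 and 44.8 CPM in luteolin corneas, against 26.6, 26.7 and 31.0 CPM in vehicle corneas (1.51-fold, log2 fold change 0.59 ± 0.09, adjusted p = 0.00101). Vps25, an ESCRT-II subunit and the fifth most abundant member by TPM, measured 145, 154 and 159 CPM with luteolin and 115, 117 and 125 CPM with vehicle (1.28-fold, adjusted p = 0.00223). Groups did not overlap for either. Under library sizes alone these 2 were the role's remaining higher calls. In ESCRT-III with its ATPase VPS4, which cuts the membrane neck, 9 of 12 members rose and none fell, and 8 were still called higher with library sizes alone. Chmp2b (gene ID 68942), the member with the smallest adjusted p, measured 249, 253 and 245 CPM with luteolin and 151.0, 151.0 and 147 CPM with vehicle. The libraries of each group lay within a few CPM of each other and far from the other group (1.66-fold, log2 fold change 0.73 ± 0.05, adjusted p = 7.3e-05). Chmp1a, a regulatory ESCRT-III subunit, was as tight, at 188.6, 190.0 and 189.1 CPM with luteolin and 135, 138 and 140.2 CPM with vehicle (1.37-fold, adjusted p = 0.000306). Chmp4c, known for delaying the final cut between dividing cells, measured 40.4, 38.8 and 40.9 CPM with luteolin and 24.8, 28.1 and 23.5 CPM with vehicle (1.57-fold, adjusted p = 0.000597). Chmp2a, the most abundant member by TPM, differed little, at 206, 203 and 209.9 CPM with luteolin and 172, 187 and 189 CPM with vehicle (1.13-fold, adjusted p = 0.0355). Its call was lost when any library but vehicle replicate 2 was left out (adjusted p between 0.0528 without vehicle replicate 3 and 0.108 without vehicle replicate 1).

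All 4 VPS13 genes, which encode bridge-like lipid transfer proteins between organelles, rose. Vps13c, which joins the endoplasmic reticulum to late endosomes, measured 80.3, 82.1 and 76.0 CPM in luteolin corneas, against 51.7, 58.3 and 54.5 CPM in vehicle corneas (1.45-fold, log2 fold change 0.54 ± 0.07, adjusted p = 0.000522). Vps13b, a Golgi protein mutated in Cohen syndrome, measured 65.1, 63.5 and 59.0 CPM with luteolin and 46.7, 45.7 and 47.5 CPM with vehicle (1.34-fold, adjusted p = 0.00103). Groups did not overlap for either gene. With library sizes alone these 2 of the 4 passed, and with the gene length correction 3 of the 4. Of the 3 other genes with a VPS symbol, Vps9d1, which carries the VPS9 domain of RAB5 activators, rose, with 31.3, 33.1 and 34.6 CPM for luteolin and 20.3, 22.9 and 22.1 CPM for vehicle (1.52-fold, adjusted p = 0.000754). Vps72, a chromatin remodelling subunit despite its symbol, measured 36.9, 38.7 and 39.9 CPM with luteolin and 31.4, 33.0 and 36.1 CPM with vehicle and did not pass (adjusted p = 0.0535). It passed without vehicle replicate 3 (0.0376) and with the gene length correction (0.000837, log2 fold change 0.55 with the median of all genes at 0.20).

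The sorting nexins held both the largest rises and 6 of the 9 members that fell. Of the 12 with a BAR domain, which bends membranes into tubules, 2 rose, 3 fell and 7 did not pass. Their median log2 fold change was -0.09, and 0.14 with the gene length correction, and relative to the median of all genes it was -0.076 and -0.063. Snx5 (gene ID 69178), which recognises cargo on retrograde tubules together with SNX1 or SNX2, measured 153, 147 and 154 CPM in luteolin corneas, against 274, 215 and 247 CPM in vehicle corneas. The vehicle libraries spread widely, but the lowest of them was still above every luteolin library (1.62-fold lower, log2 fold change -0.70 ± 0.09, adjusted p = 0.000655). Snx7, a partner of SNX4 in endosomal recycling, measured 14.1, 12.4 and 14.99 CPM with luteolin and 21.5, 20.1 and 21.3 CPM with vehicle (1.52-fold lower, adjusted p = 0.00181). Snx18, which tubulates recycling endosomes during autophagosome formation, measured 29.8, 23.9 and 26.3 CPM with luteolin and 31.5, 33.8 and 34.9 CPM with vehicle (adjusted p = 0.0225). The Snx18 groups came close to each other, and its call was lost without luteolin replicate 2 (adjusted p = 0.0671) or 3 (0.0642) or vehicle replicate 3 (0.0561), and with the gene length correction (0.174). Its log2 fold change was -0.33, and -0.18 with the gene length correction, where the median of all genes was 0.20. Snx8, an endosomal nexin of the same structural class, rose, with 68.7, 60.8 and 63.6 CPM for luteolin and 34.8, 47.8 and 44.1 CPM for vehicle (1.52-fold, adjusted p = 0.00377).

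Among the 18 other sorting nexins, 8 rose, 3 fell and 7 did not pass. Their median log2 fold change was 0.08, and -0.04 with library sizes alone, and it stood 0.096 above the median of all genes in both. Snx31 (gene ID 66696), a relative of SNX17 that binds integrin tails and was described in the bladder lining, measured 92.8, 91.1 and 87.9 CPM in luteolin corneas, against 19.8, 27.3 and 13.2 CPM in vehicle corneas. It was the largest rise among the members, 4.50-fold (log2 fold change 2.17 ± 0.22, adjusted p = 0.000258), and ranged between 1.93 and 2.46 on the log2 scale over the alternatives. Snx29 (gene ID 74478), which also carries a RUN domain, measured 75.2, 66.1 and 71.0 CPM with luteolin and 24.4, 32.6 and 26.8 CPM with vehicle (2.53-fold, log2 fold change 1.34 ± 0.11, adjusted p = 0.000131). Snx25, an RGS-domain nexin linked to breakdown of the TGF-beta receptor, measured 83.2, 65.7 and 72.8 CPM with luteolin and 38.0, 44.1 and 43.0 CPM with vehicle (1.77-fold, adjusted p = 0.000526). All 3 genes kept their groups apart. Snx14, an RGS-domain nexin of the endoplasmic reticulum, measured 69.8, 68.6 and 67.4 CPM with luteolin and 46.1, 47.3 and 44.0 CPM with vehicle (log2 fold change 0.58 ± 0.06, adjusted p = 0.000204). Snx13, a call chosen for mention after its values were seen, passed although its groups overlapped (59.5, 60.3 and 50.2 CPM with luteolin, 46.1, 51.0 and 45.4 CPM with vehicle, adjusted p = 0.0422), and it missed the threshold without luteolin replicate 1 (0.155) or 2 (0.165) or vehicle replicate 1 (0.122) or 3 (0.140).

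Of the 3 that fell in this role, Snx3, which works with retromer to recycle the Wnt carrier Wntless, measured 77.6, 86.4 and 80.6 CPM in luteolin corneas, against 100.2, 97.0 and 97.8 CPM in vehicle corneas (1.21-fold lower, log2 fold change -0.27 ± 0.06, adjusted p = 0.00635). With the gene length correction its log2 fold change was 0.088 and did not pass, while the median of all genes was 0.20 in that fit. Snx24, a small nexin with little beyond its PX domain, measured 8.57, 10.4 and 8.36 CPM with luteolin and 15.1, 14.3 and 12.6 CPM with vehicle (1.54-fold lower, adjusted p = 0.00643). Neither gene overlapped between groups. Snx20 lies under the level of 5 CPM set for named genes and is given here after its values were seen. This nexin binds the selectin ligand PSGL-1 and is known from leukocytes. Its estimated counts were 3, 5 and 3 in luteolin libraries, against 32, 53 and 62 in vehicle libraries, so it was near the floor of detection in every luteolin library. The difference was 11.8-fold lower (log2 fold change -3.56 ± 0.41, adjusted p = 0.000411), and 2.90-fold lower with limma on log2(FPKM + 1), where the pseudocount weighs on low values. Most macrophage and dendritic cell markers fell beside it (sum 239 to 297 CPM with luteolin, 579.5 to 949.7 CPM with vehicle), and their part in the Snx20 result was not tested.

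By TPM the members together took 6564 ± 97.6 TPM in luteolin corneas and 5953 ± 224 TPM in vehicle corneas (SD, n = 3 each), a ratio of 1.10. Levels spanned a wide range, with Chmp2a at a mean of 464 TPM over all 6 libraries at the top, followed by Gabarap (398) and Lamp1 (396), and Ulk4 at 0.595 TPM at the bottom; 17 members exceeded 100 TPM and 8 lay under 5 TPM. ESCRT-III with VPS4 was the most abundant role, at 1780 ± 21.9 TPM with luteolin and 1432 ± 31.0 TPM with vehicle. VPS13 genes had the highest ratio (1.32) at one of the lowest levels, 32.3 ± 1.42 TPM with luteolin and 24.3 ± 0.83 TPM with vehicle. Sorting nexins with a BAR domain had a ratio of 0.895 and lysosomal regulators and membrane proteins 0.886, both with groups that did not overlap. ATG8 proteins (1.07), cargo receptors (1.09) and the retromer and retriever subunits (0.998) overlapped between groups. Summed levels of a role follow its most abundant genes, so they describe the pool of transcripts and carry no test.

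**Figure D4:**
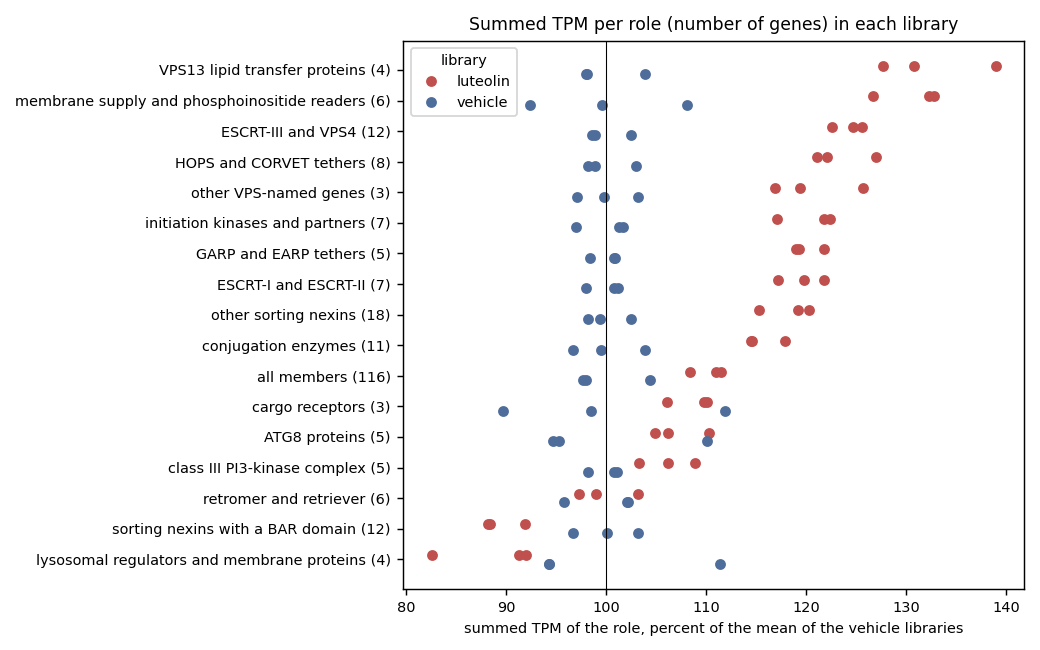
Summed TPM of each role in each library, as a percentage of the mean of the vehicle libraries (number of genes in brackets); red points are luteolin libraries and blue points vehicle libraries. Luteolin points lie highest relative to vehicle for the VPS13 genes (ratio 1.32) and the membrane supply genes (1.31) and lowest for the lysosomal role (0.886).

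A ratio between related genes within one library does not depend on scaling between libraries. Of 27 paralog pairs, 16 had ratios that did not overlap between groups; for the CPM of single genes, groups did not overlap in 67.4% of all tested genes. With 3 libraries against 3 the exact permutation test (two-sided) cannot go below p = 0.10, and after adjustment over the pairs the smallest value was 0.169, so no pair passed. Tfeb stood at 0.775, 0.614 and 0.677 of Tfe3 in luteolin corneas, against 0.339, 0.467 and 0.416 in vehicle corneas, a shift of 0.76 in the log2 ratio. Gabarapl2 stood at 0.662, 0.653 and 0.650 of Gabarap with luteolin and 0.451, 0.480 and 0.434 with vehicle. In both pairs the ratio was higher in every luteolin library. Chmp2a exceeded Chmp2b by 2.09, 1.99 and 2.12 times with luteolin and by 2.83, 3.09 and 3.25 times with vehicle. Snx5 exceeded Snx6, the other nexin of its kind, by 1.30, 1.12 and 1.31 times with luteolin and by 2.10, 1.63 and 1.92 times with vehicle. Snx3 exceeded Snx12, its closest relative, by 1.40, 1.66 and 1.47 times with luteolin and by 2.44, 2.12 and 2.21 times with vehicle. In these 3 pairs every luteolin ratio was below every vehicle ratio. Snx3 and Snx12 were the 1 pair whose fold changes were called in opposite directions, Snx12 being higher at 88.9, 86.3 and 85.1 CPM with luteolin, against 62.7, 71.2 and 71.1 CPM with vehicle (adjusted p = 0.00384).

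**Figure D5:**
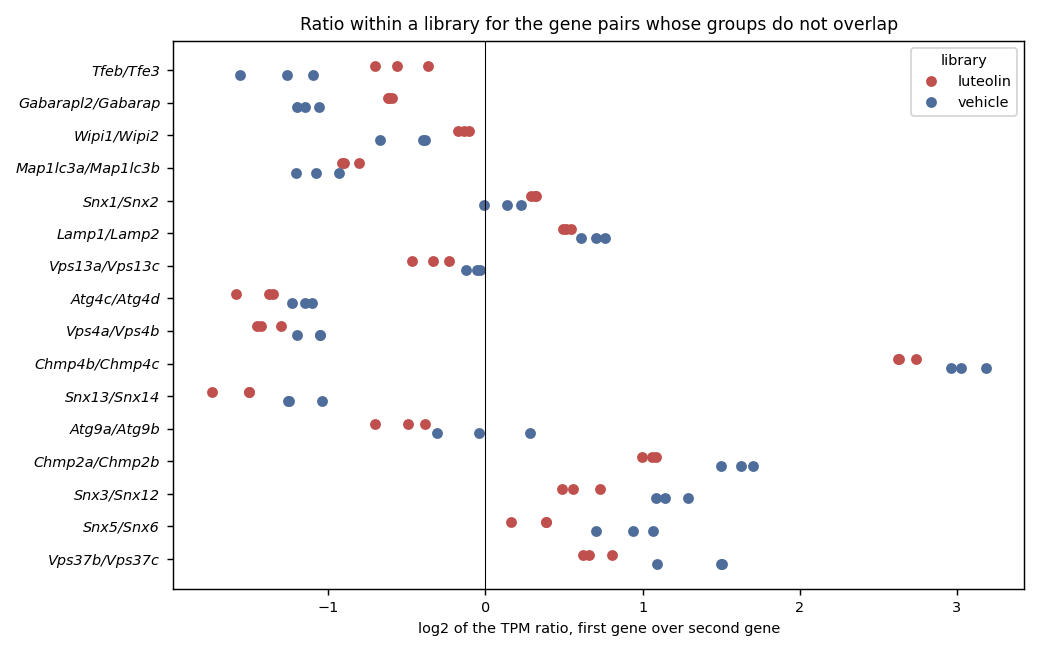
Log2 of the TPM ratio of the first to the second gene in each library, for the 16 of 27 paralog pairs whose groups do not overlap; red points are luteolin libraries and blue points vehicle libraries. Tfeb/Tfe3 at the top shifts by 0.76 to higher values with luteolin, and Vps37b/Vps37c at the bottom by -0.67.

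Genes of the same processes that the symbols do not capture were counted from lists of known partners, to be read against the 28.5% of all tested genes called higher and the 30.4% called lower. Among 31 autophagy partners there were 21 higher calls, 3 lower calls and 7 genes without a call, and the median log2 fold change was 0.34. Those that fell were Vmp1 (1.43-fold lower, adjusted p = 0.00195), Bnip3 (2.26-fold lower, adjusted p = 0.000667) and Mitf (2.34-fold lower, adjusted p = 0.0129), given here after their values were seen. Bnip3l, like its paralog Bnip3 a receptor that marks mitochondria for autophagy, measured 299, 284 and 279 CPM in luteolin corneas, against 173, 190.2 and 180.2 CPM in vehicle corneas (1.59-fold, adjusted p = 0.000166). Rubcn (Rubicon), an inhibitor of autophagosome maturation, also rose, with 69.7, 70.4 and 70.6 CPM for luteolin and 43.9, 48.0 and 45.8 CPM for vehicle (1.53-fold, adjusted p = 0.000185). Groups did not overlap for either gene, one of which promotes autophagy while the other restrains it.

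Of 30 genes of mTORC1 and AMPK signalling, which sense nutrients and energy and control autophagy, 9 rose, 6 fell and 15 did not pass (median -0.01), a share of calls no higher than that of all genes. Fnip2, a folliculin partner at the lysosome, measured 78.9, 69.3 and 69.0 CPM in luteolin corneas, against 27.9, 32.4 and 32.3 CPM in vehicle corneas (2.35-fold, adjusted p = 8.27e-05). Prkaa2, a catalytic subunit of AMPK, rose by 1.67-fold (adjusted p = 0.000230). Of 32 lysosomal enzymes and membrane proteins other than cathepsins, 6 rose, 12 fell and 14 did not pass (median -0.15), so that 56.2% were called, against 58.9% of all genes. Gusb, which encodes beta-glucuronidase, measured 20.1, 19.4 and 17.7 CPM with luteolin and 38.5, 43.6 and 40.9 CPM with vehicle (2.15-fold lower, adjusted p = 9.68e-05). Lipa, the lysosomal acid lipase, fell similarly (2.10-fold lower, adjusted p = 0.000112). Of 21 subunits of the V-ATPase, the pump that acidifies lysosomes, 7 rose, 6 fell and 8 did not pass (median 0.04). Alternative forms of its membrane subunit a differed: Atp6v0a1 rose, with 196, 202 and 185 CPM for luteolin and 105, 128 and 124 CPM for vehicle (1.63-fold, adjusted p = 0.000461). Tcirg1, the form known from osteoclasts, fell, with 23.6, 28.9 and 25.8 CPM for luteolin and 43.0, 45.5 and 49.1 CPM for vehicle (1.76-fold lower, adjusted p = 0.000410). Most of the macrophage and dendritic cell markers given above were lower in the same luteolin libraries, and their part in the lysosomal counts was not tested.

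ESCRT partners outside the symbol rule gave 8 higher, 2 lower and 7 not passed of 17 (median 0.18), and endosomal sorting partners 11 higher, 4 lower and 9 not passed of 24 (median 0.11). Tom1l2, an adaptor that gathers ubiquitinated cargo, measured 77.7, 81.4 and 78.6 CPM in luteolin corneas, against 41.5, 45.3 and 42.7 CPM in vehicle corneas (1.83-fold, adjusted p = 7.08e-05). Stambp, a deubiquitinase that works on ESCRT cargo, rose by 1.51-fold (adjusted p = 0.000590). Sorl1, a sorting receptor that retromer recycles, measured 579, 543 and 530.1 CPM with luteolin and 247, 297 and 272 CPM with vehicle (2.03-fold, adjusted p = 0.000114). Tbc1d5, a RAB7 inactivator bound to retromer, rose by 1.86-fold (adjusted p = 0.000112). The 4 genes did not overlap between groups. The largest absolute log2 fold change among retromer and retriever subunits was 0.20, and Sorl1 and Tbc1d5 had 1.02 and 0.89. These 2 were named for the smallest p among the 24 endosomal sorting partners, so a large difference follows partly from that choice. No contrast between them and the subunits was tested.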

How the data were processed

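Corneal RNA of 3 luteolin and 3 vehicle samples was sequenced on Illumina instruments after TruSeq preparation, as the labels' protocols state. The authors deposited 1 gene table with estimated counts, FPKM and TPM for each library, per the file headers. Named without their roles in the submitters' processing notes are RSEM 1.2.12, Bowtie2 2.2.5 and build mm9. The sources used here do not give the annotation or whether counting used strand. Estimated counts carry decimals where reads were divided among genes or transcripts. Of the members, 14 had such decimals (tolerance 0.001) in at least 1 library and 8 in all 6 (Becn1, Pik3c3, Atg4d, Atg7, Vps16, Vps29, Snx21 and Snx22), so their values depend on that division. Another 14 columns of group averages and normalized counts were not used.

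After rounding, the estimated counts went into edgeR 4.0.16 under R 4.3.3 (TMM factors, filterByExpr with a minimum count of 10 and total of 15, quasi-likelihood test, Benjamini-Hochberg adjustment over all 13838 genes tested, 3956 removed, threshold 0.05). All adjusted p-values are from edgeR unless limma 3.58.1 or DESeq2 1.42.0 is named. CPM uses the TMM factors. Estimated counts totalled 16084855 to 16469699 per library and the common biological coefficient of variation was 13.8%. On simulated data with known changes the fit recovered 48% of 1.5-fold, 68% of 2-fold and 94% of 8-fold changes, and 5.66% of its calls were false. Few genes were changed in that simulation, unlike in these data, so it does not show how the scaling behaves here.

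Paralog ratios used the deposited TPM with a two-sided exact permutation test. The members, roles, pathway lists and markers were chosen with earlier results of these data known. Named are up to 12 members in each direction with the largest called change at 5 CPM or more without overlap (12 higher, and the 8 lower that qualified), the 12 members given by full name, the 2 members of each role and 2 genes of each pathway list with the smallest p, and both genes of each pair discussed. Outside this rule are Vps16, Vps33a and Vps26a, named for their promoters, and Ulk1, Ulk2, Vps33b, Snx20, Snx13, Vmp1, Bnip3 and Mitf, chosen after their values were seen. Promoter windows are RefSeq's (GRCm38.p6), matched by gene ID, while the files use mm9. Tried as alternatives were other scaling factors, filters, DESeq2, limma on log2(FPKM + 1) and log2(FPKM + 0.1), a gene length correction, a muscle covariate, a replicate block and leaving out each library.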

Additional observations from a re-analysis of the deposited data

How the results depend on the processing

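Of 1332 alternative values (74 named genes under 18 alternatives, Ulk1, Ulk2 and Vps33b not among them), 1208 kept their direction and side of the threshold, 73 lost the call, 27 gained one and 24 changed sign, and 50 genes kept both throughout. The gene length correction left 2801 genes lower over the whole table, against 4208. Members called higher numbered 38 with limma on log2(FPKM + 0.1), against 58 as reported. Members called lower numbered 14 with upper quartile factors, 17 with library sizes alone, 18 and 19 with limma on log2(FPKM + 1) and log2(FPKM + 0.1), against 9. The cause was not tested. Leaving out 1 library gave 43 to 60 members higher and 7 to 10 lower, against 22.6% to 29.3% and 25.3% to 31.6% of all genes. Of the 67 calls, 48 held without any 1 library, and the share of all genes' calls that held was not counted.

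Sign changes touched genes with small differences. With the gene length correction the log2 fold change was 0.088 for Snx3, 0.17 for Becn1, 0.28 for Gabarap, 0.20 for Snx6 and 0.10 for Vps37b. The median of all genes was 0.20 in that fit, against -0.02 as reported. Gabarap lay below the median of all genes as reported (-0.12) and above it with the correction. Both Gabarap and Snx6 were called higher in the length-corrected fit (edgeR adjusted p = 0.00748 and 0.0291). Sqstm1 was at -0.0036 with library sizes alone and -0.0045 in both limma fits. Lamp2 was at -0.093 with upper quartile factors, -0.11 with library sizes alone, -0.00676 with the filter of 1 CPM and -0.19 in both limma fits. Uvrag was at -0.053, -0.072, -0.094 and -0.10 with upper quartile factors, library sizes alone and the 2 limma fits, and at -3.42e-05 with the muscle covariate. Leaving out 1 library gave -0.043 to 0.055 for Lamp2, -0.016 to 0.10 for Uvrag and -0.26 to 0.039 for Vps37b. The cause was not tested.

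With a replicate block, 54 members were called higher and 10 lower, among 3790 and 4144 of all genes. Same-numbered libraries deviated with correlations of -0.15, 0.03 and 0.01, so the numbers were not taken to pair them.

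With 3 libraries a group, small changes can miss the threshold, so a gene that did not pass is not shown to be unchanged. Estimated counts also rest on how reads were divided among transcripts, which was not tested.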
